A study of Mus musculus with 100 samples.

Results

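The Peg3 domain is a cluster of imprinted genes on proximal mouse chromosome 7, and 3 of its genes, Peg3, Usp29 and Zim1, were followed here among the 25965 genes with an RNA-seq value. They were taken by name, and each had a single row. Zim2, Zim3, Zfp264 and Peg3os, the other genes fixed for the domain, were not analysed here.

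Imprinted genes are transcribed from the allele of one parent. In the Peg3 domain a control region that carries DNA methylation on the maternal copy spans the start of Peg3 and its first intron, and Peg3 and Usp29 are read from the unmethylated paternal copy in opposite directions, from starts that lie next to each other. Peg3 encodes a large zinc finger protein linked to maternal behaviour, growth and cell death, Usp29 encodes a ubiquitin-specific protease, and Zim1 is a zinc finger gene known to be expressed from the maternal copy.

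Polyadenylated RNA was compared in 6 groups of 3 libraries, 18 in all. Female mouse embryonic fibroblasts (MEFs) came from 1 female midgestation F1 embryo of i4F-BL6 females and CAST males, so that the BL6 allele is maternal and the CAST allele paternal. The i4F transgene is a doxycycline-inducible cassette of the 4 Yamanaka factors with rtTA at Rosa26, which the MEFs and the iPSCs both carry. Doxycycline turned MEFs into iPSCs in medium with knockout serum replacement (KSR) and LIF, giving F KSR2 with F KSR4 from MEFs of that single female embryo, and from a single male embryo M KSR5 with M KSR3. Each line grew from 1 picked colony, first on feeder cells without doxycycline, so that a line is 1 clone and a sex is 2 clones of 1 embryo. No male MEFs were among these libraries, so M KSR3 and M KSR5 against MEFs also differ in sex and embryo. TX1072 ESCs (TX 2i ESCs), a female line of the same parental cross direction, were grown with serum, LIF and the inhibitors CHIR99021 and PD0325901. The replicates are called biological triplicates by the study, but nothing says how the 3 libraries of a line were separated, so p-values measure the spread between libraries of a line and not between lines.

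Reads on genes numbered 13183036 to 17921280 per library, and 17.7 to 19.9% of them could be given to an allele through a strain SNP. Levels are log2 RPM, the reads of a gene scaled to the depth of its library, without a correction for gene length, where a single read stands between -4.29 and -3.89. The 8 pluripotency markers summed to at most 2.29 RPM in a MEF library and to 3674 to 7824 RPM in the other libraries. Summed fibroblast markers without Fn1, a gene that the pluripotent cells also express, were 0.0604 to 0.605% of the MEF mean in the pluripotent libraries, with the highest value in M KSR5 replicate 3. The 8 differentiation markers summed to 33.3 to 101 RPM in the pluripotent libraries and to 80.8 to 204 RPM in MEFs.

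In the GRCm38 coordinates of the files, Zim1 (ENSMUSG00000002266) lies at chr7:6675443-6696450 on the minus strand, Peg3 (ENSMUSG00000002265) at chr7:6703892-6730421 on the minus strand and Usp29 (ENSMUSG00000051527) at chr7:6961160-6963769 on the plus strand. The Peg3 row has the span of a GENCODE transcript with 9 exons. The Usp29 row is a single exon of 2610 bases that begins 231 kb downstream of the Usp29 start, so the value reads one stretch far from the promoter. Curated RefSeq transcripts of Peg3 and Usp29 start 164 bases apart. The stretch between the outermost RefSeq starts of Peg3 and Usp29, chr7:6730463-6730558, is shown 5′ to 3′ in the direction of Peg3 because both genes leave from it. Its capitals mark ATTGG, the reverse complement of the CCAAT box.

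Peg3-Usp29 promoter: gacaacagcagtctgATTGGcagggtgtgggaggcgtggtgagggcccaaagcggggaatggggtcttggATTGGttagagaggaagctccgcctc

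These 96 bases were 60.4% GC. CCAAT or ATTGG was present in 37.4% of the 32851 RefSeq promoter windows of 300 bases, and 11.7% held at least the 2 matches of the Peg3 window.

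The first intron of Peg3 (transcript NM_008817.2, chr7:6726575-6730257) lies inside the control region and is known for a row of binding sites of the zinc finger protein YY1. GCCATNTT, the core of that site, was searched on both strands and occurred 12 times in the intron, 823 to 3111 bases from the start, each time in the direction of Peg3, and 0 times on the other strand. The stretches chr7:6727835-6727981 and chr7:6728253-6728468 are shown on the minus strand as 2 places where 3 copies lie close together, with the copies in capitals.

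Intron stretch 1: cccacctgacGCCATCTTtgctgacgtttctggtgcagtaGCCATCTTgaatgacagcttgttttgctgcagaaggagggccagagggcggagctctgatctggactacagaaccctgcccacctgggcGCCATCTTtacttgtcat

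Intron stretch 2: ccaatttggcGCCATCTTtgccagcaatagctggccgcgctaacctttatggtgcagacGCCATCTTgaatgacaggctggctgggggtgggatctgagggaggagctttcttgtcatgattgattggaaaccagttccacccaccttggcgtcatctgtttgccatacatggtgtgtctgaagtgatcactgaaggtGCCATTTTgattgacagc

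Of 32851 windows of 3000 bases placed 200 bases downstream of a RefSeq start, 42.1% held GCCATNTT on either strand, and 3 held at least as many as the 12 copies in the direction of transcription behind the Peg3 start. The windows behind the Zim1 and Usp29 starts held none. Sequences are from the RefSeq GRCm38.p6 reference, which is the BL6 strain, and a match in letters is not a measured binding site.

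Peg3 was read from the paternal allele in MEFs and from both alleles in every pluripotent library. The 3 MEF libraries had 461, 560 and 413 paternal reads and 0 maternal reads, and 0 of the 1434 allelic reads summed allows a maternal share of up to 0.209%. In M KSR3 the share of maternal reads was 73.8, 75.6 and 80.0%, from 400 to 480 allelic reads per library. In F KSR2 it was 75.9, 68.8 and 61.9%. In F KSR4 it was 68.7, 63.4 and 68.8%.

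The libraries of M KSR5 gave 44.5, 47.9 and 59.3%, and those of TX 2i ESCs 66.9, 65.0 and 61.0%. The lowest share among the other 12 pluripotent libraries was 61.0%, above all 3 of M KSR5. The 95% Wilson intervals of M KSR5 replicates 1 and 3 ran from 41.7 to 47.4% and from 56.1 to 62.4%, so replicates of one clone differed by more than counting error. Intervals and floors cover counting error only. M KSR5 replicate 3 was also the pluripotent library with the highest fibroblast marker sum without Fn1 (0.605% of the MEF mean, and 2.57% with Fn1, where F KSR4 replicate 2 was highest with 4.92%), and without it the mean of the line was 46.2%, against 50.6% with it. The part of fibroblast RNA in that share was not tested.

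**Figure D1:**
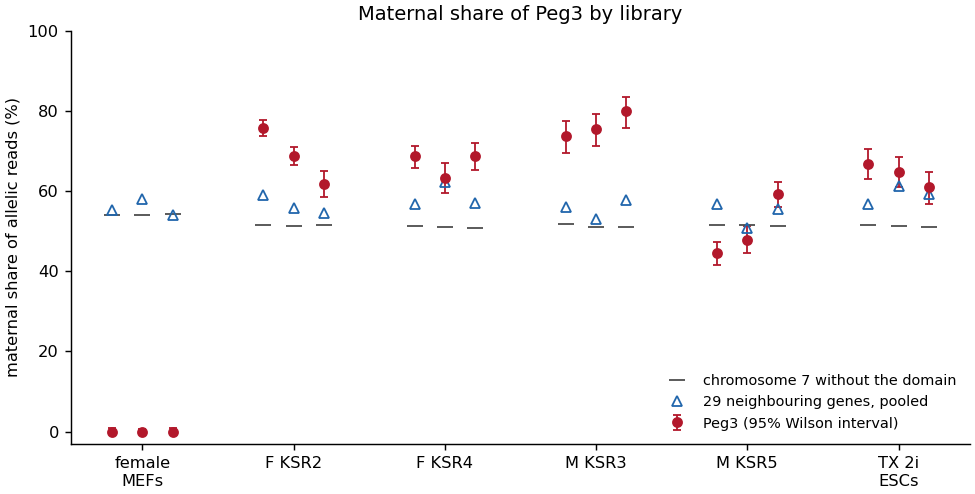
Maternal share of allelic reads (y axis, percent) for the 18 libraries by group (x axis). Red points are Peg3 with 95% Wilson intervals, grey dashes chromosome 7 without the 3 genes and blue triangles the pooled 29 neighbouring genes. Peg3 sits at 0 in MEFs and between 44.5 and 80.0% in the pluripotent libraries, with M KSR5 lowest, while chromosome 7 stays between 50.8 and 54.3%.

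In order, the mean maternal share of Peg3 was 76.4% ± 3.2 (SD, n = 3) in M KSR3, 68.9% ± 7.0 in F KSR2, then 67.0% ± 3.1 in F KSR4, 64.3% ± 3.0 in TX 2i ESCs, 50.6% ± 7.7 in M KSR5 and 0 in MEFs. From M KSR3 down to TX 2i ESCs each group overlapped the next, and M KSR5 overlapped none of the other groups. The 3 MEF libraries differed from the 15 pluripotent libraries by 65.4 percentage points (exact two-sided permutation test, p = 0.00123, the smallest the 816 arrangements allow; adjusted p = 0.0123 over 10 comparisons). A pair of groups of 3 cannot go below p = 0.1, which is what MEFs against each pluripotent group and M KSR3 against M KSR5 gave (adjusted p = 0.143 each, exact permutation tests). All of these 6 pairs were without overlap. M KSR5 minus M KSR3 was -25.9 percentage points. Without any 1 of the MEF libraries, the difference from the 15 libraries stayed at 65.4 percentage points (exact permutation test, adjusted p = 0.0735). That value is the smallest exact p so few MEF libraries allow, adjusted over the 10 comparisons, so the lost call was fixed in advance.

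Female and male lines overlapped. The 6 female KSR-iPSC libraries had a mean maternal share of 67.9% ± 5.0 and the 6 male ones 63.5% ± 15.1, and males minus females was -4.45 percentage points (exact permutation test, p = 0.504, adjusted p = 0.630). With the lines as units, 2 against 2, the smallest p is 0.333. The 12 KSR-iPSC libraries averaged 65.7% and TX 2i ESCs 64.3% ± 3.0 (exact permutation test, adjusted p = 0.842). F KSR4 minus F KSR2 was -1.90 percentage points (exact permutation test, adjusted p = 0.778).

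As a background, the rest of chromosome 7 was measured in the same libraries. It had maternal shares of 51.1 to 51.6% as means of the pluripotent groups and 54.2% ± 0.1 in MEFs. Peg3 exceeded it by 25.0 percentage points in M KSR3, 17.4 in F KSR2, 12.99 in TX 2i ESCs and 15.9 in F KSR4, with all 3 libraries above in each of these groups, and lay 1.02 below it in M KSR5. Over the 5 groups the mean excess was 14.1 ± 9.5 percentage points (exact sign-flip test, p = 0.125, and 5 groups cannot reach 0.05). The 29 neighbouring genes within 500 kb, pooled per library, had mean shares of 55.9% ± 2.1 in MEFs and of 54.5 to 59.1% in the pluripotent groups, from 249 to 439 allelic reads per library.

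Beside 12 other genes known to be expressed from the paternal allele, each with a mean share in every group, Peg3 had the share next to the highest in F KSR4, M KSR3 and TX 2i ESCs, and not in F KSR2 or M KSR5. The study had shortlisted these genes, like Peg3, from known imprinted genes, in part for transcription from a single allele in these MEFs. Their low share in MEFs was thus fixed by the choice. The median of the 12 was 0.0201% in MEFs. It was 56.1% in F KSR2, then 47.5% in TX 2i ESCs, 46.5% in M KSR3, 45.7% for M KSR5 and 41.7% for F KSR4. In F KSR4, M KSR3 and TX 2i ESCs 1 of the 12 genes had a higher share than Peg3, and in F KSR2 and M KSR5 4 had. In F KSR2 3 of those 4 were the chromosome 6 genes Sgce, Mest and Peg10, and all of chromosome 6 had a maternal share of 96.8% ± 3.1 there, against 49.3 to 54.0% as means of the other groups. Without the genes of chromosome 6, 1 of 9 stood above Peg3 in F KSR2 and the median of the 9 was 49.1%. The list holds 2 other genes of chromosome 7. Snrpn had 51.1% ± 2.7 in TX 2i ESCs, 42.8% ± 5.2 in F KSR2, then 18.2% ± 3.3 in F KSR4, 10.7% ± 9.9 in M KSR5 and 4.97% ± 1.60 in M KSR3. Peg12 had between 42.4 and 64.4% in the pluripotent groups, from 33 to 116 allelic reads per group.

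Measured by allele, as RPM within the reads of that parental genome, the maternal allele was present in all pluripotent groups, while the paternal allele fell in F KSR4, M KSR3 and TX 2i ESCs and did not pass the test in F KSR2 and M KSR5. Maternal Peg3 had 0 reads in MEFs. From the highest group down it reached 492 ± 158 RPM (SD, n = 3) in F KSR2, then 292 ± 101 in F KSR4, 251 ± 48 in M KSR5, 229 ± 6 in TX 2i ESCs and 162 ± 13 in M KSR3. With 3 reads taken as the floor of each MEF library, these were at least 328, 195, 167, 153 and 108-fold higher. With 0 reads in MEFs, maternal Peg3 passed the filter on low values only through pluripotent libraries and had to differ, so no test is given for it. Of all genes, 55.1% passed on the maternal allele for F KSR2, 55.7% for TX 2i ESCs, 56.3% for M KSR3, 52.3% for F KSR4, 55.2% for M KSR5 and 63.3% for the mean of the 5 groups.

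Paternal Peg3 stood at 306, 305 and 234 RPM in the MEF libraries. In M KSR3 it stood at 89.9, 69.7 and 55.7 RPM, all below MEFs, a fall by 1.99 ± 0.23 (SE) on the log2 scale (limma, adjusted p = 8.23e-07). In TX 2i ESCs it stood at 122, 131 and 165 RPM, again without overlap, and fell by 1.01 ± 0.23 (limma, adjusted p = 0.00105). F KSR4 had 226, 145 and 178 RPM, below the lowest MEF library.

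Its fall by 0.63 ± 0.23 passed the test (limma, adjusted p = 0.0266) but lost the call without MEF replicate 1 (-0.57) or 2 (-0.57), or without F KSR4 replicate 2 (-0.48) or 3 (-0.63). F KSR2 with 264, 303 and 250 RPM and M KSR5 with 411, 286 and 263 RPM overlapped MEFs, with log2 differences of -0.04 ± 0.23 and 0.17 ± 0.23 (limma, adjusted p = 0.886 and 0.550). Against the mean of the 5 groups the paternal allele fell by 0.70 ± 0.18 (limma, adjusted p = 0.00206). On the paternal allele 56.1% of all genes passed for F KSR2, 53.2% for TX 2i ESCs, 55.6% for M KSR3, 51.3% for F KSR4, 55.4% for M KSR5 and 63.2% for the mean. The maternal shares over 60% lay both in groups where the paternal allele stood at the MEF level (F KSR2) and in groups where it was lower (M KSR3, F KSR4 and TX 2i ESCs).

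**Figure D2:**
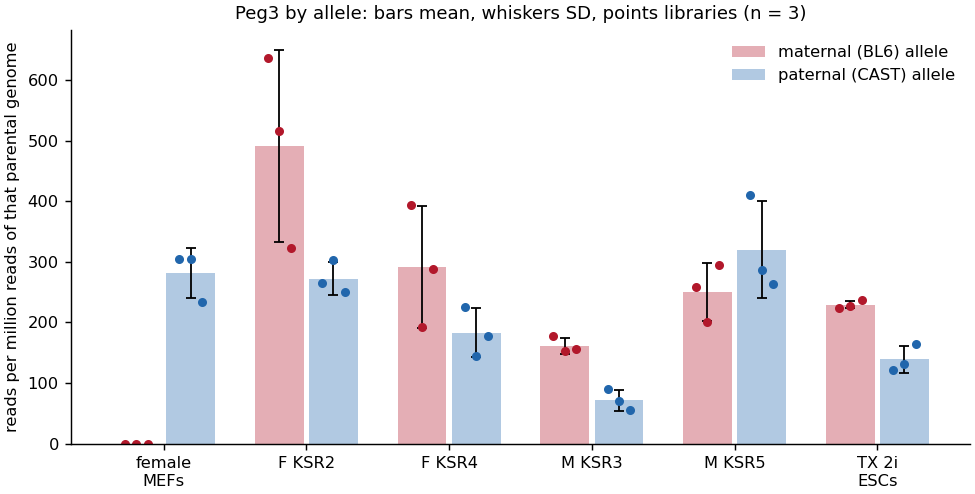
Peg3 RPM within the reads of each parental genome (y axis, linear) by group (x axis), red for the maternal BL6 and blue for the paternal CAST allele. Bars are means, whiskers SD and points libraries (n = 3). The maternal bar is absent in MEFs, and the paternal bar is at 71.8 RPM in M KSR3 against 281 RPM in MEFs. Each allele is scaled to the reads of its own genome, so red and blue heights cannot be compared. In M KSR5, 1453 maternal and 1439 paternal reads stood at 251 and 320 RPM.

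Summed over alleles, Peg3 overlapped MEFs in M KSR3 and stood above every MEF library in the other pluripotent groups. MEF libraries had log2 levels of 7.06, 7.02 and 6.69, from 1966 to 2547 reads. M KSR3 libraries had 7.04, 6.71 and 6.64 and overlapped them, with a log2 difference of -0.13 ± 0.22 (limma, adjusted p = 0.626). In that line a level close to that of MEFs was reached with about 3 in 4 allelic reads from the other parent.

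F KSR2 libraries had 8.76, 8.58 and 8.02, all above MEFs, and rose by 1.53 ± 0.22 (limma, adjusted p = 1.08e-05), or 2.89-fold. M KSR5 libraries had 8.20, 7.80 and 7.93 and rose by 1.06 ± 0.22 (adjusted p = 0.000453). F KSR4 libraries had 8.19, 7.33 and 7.91 and rose by 0.89 ± 0.22 (adjusted p = 0.00205). TX 2i ESCs had 7.23, 7.32 and 7.51, also above every MEF library, but the difference of 0.43 ± 0.22 did not pass (adjusted p = 0.0973), and did in a fit of these 6 libraries alone (adjusted p = 0.0192).

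In these comparisons 67.0% of all genes passed for F KSR2, 66.5% for TX 2i ESCs, 67.6% for M KSR3, 65.8% for F KSR4 and 67.9% for M KSR5, so that a call by itself is common. The median gene rose by 0.21 in the mean of the pluripotent groups, and median-of-ratios scaling took 0.24 from it. Under that scaling Peg3 rose by 0.52 in the mean of the 5 groups (adjusted p = 0.00784), against 0.76 ± 0.17 without it (adjusted p = 0.000744, 74.6% of genes passing). Peg3 in M KSR3 against MEFs went from -0.13 to -0.43 under median-of-ratios scaling (limma, adjusted p = 0.0767), without a call. In bulk RNA, fewer cells with a transcript and less transcript per cell cannot be told apart.

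**Figure D3:**
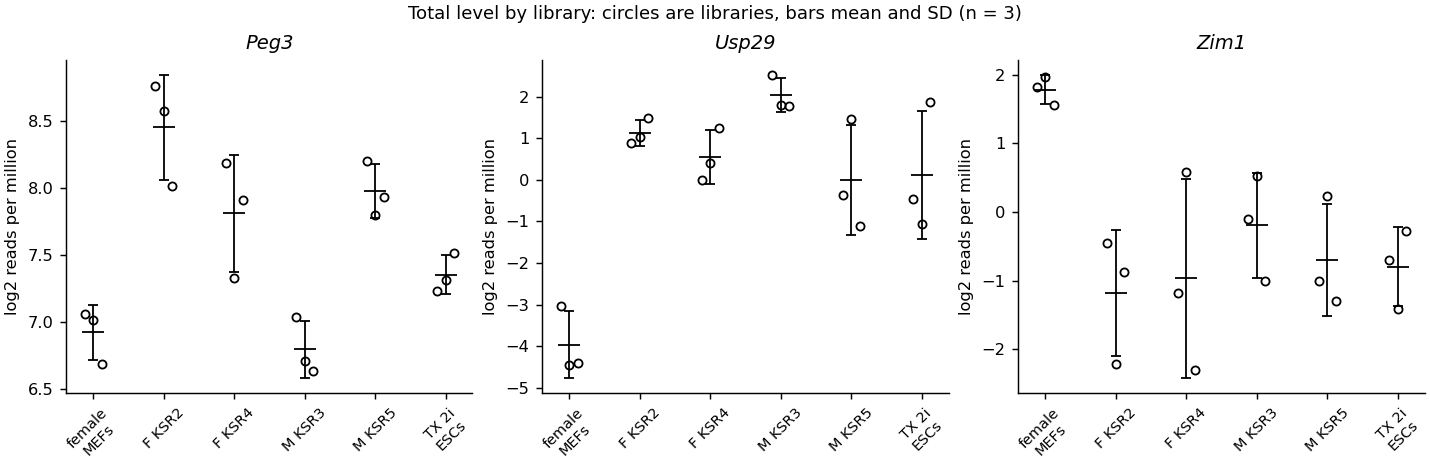
Log2 RPM (y axis, log scale) of the 3 genes in each library by group (x axis). Circles are libraries and bars the mean and SD (n = 3). Peg3 in M KSR3 overlaps MEFs, Usp29 is lowest in MEFs, and Zim1 is highest in MEFs, in each case over all libraries. The 2 MEF libraries at the bottom of the Usp29 panel have 0 reads and are drawn at the value held for no read.

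Ordered by level, Peg3 ran from F KSR2 (8.45 ± 0.39) over M KSR5 (7.98 ± 0.20), F KSR4 (7.81 ± 0.44), TX 2i ESCs (7.35 ± 0.14) and MEFs (6.92 ± 0.20) to M KSR3 (6.80 ± 0.21). Neighbours in this order overlapped, apart from TX 2i ESCs and MEFs. The lines of one sex differed in males: M KSR3 stood below M KSR5 by 1.18 ± 0.22 (limma, adjusted p = 0.00765), where 4.48% of genes passed. F KSR2 and F KSR4 differed by 0.64 ± 0.22 (adjusted p = 0.159, 1.14% of genes passing), which passed without F KSR4 replicate 1 (0.83, adjusted p = 0.0291).

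Female KSR-iPSCs exceeded male ones by 0.74 ± 0.29 (limma, adjusted p = 0.180, 2.87% of genes passing), and with the line as a random effect the adjusted p was 0.306. The mean of the 4 KSR-iPSC lines exceeded TX 2i ESCs by 0.41 ± 0.18 (adjusted p = 0.108, 23.0% of genes passing). Without M KSR3 the mean of the other 3 lines exceeded TX 2i ESCs by 0.73 (adjusted p = 0.00839), and without F KSR2 by 0.18 (adjusted p = 0.540). The call was also gained without F KSR2 replicate 3 (adjusted p = 0.0496) or F KSR4 replicate 2 (adjusted p = 0.0270). None of the differences between pluripotent groups passed for Usp29 or Zim1.

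Usp29, the partner of Peg3 at the shared start, was close to absent in MEFs and present at a low level in all pluripotent libraries. MEF libraries had 2, 0 and 0 reads. M KSR3 libraries had 98, 68 and 62 reads, F KSR2 libraries 33, 38 and 46, and F KSR4 libraries 18, 24 and 35. TX 2i ESCs had 13, 9 and 57 reads and M KSR5 14, 49 and 8, so that single libraries of these groups differed several-fold.

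Every pluripotent library was above every MEF library. The fitted log2 rise of Usp29 ran from 3.95 in M KSR5 to 5.99 in M KSR3, and rests on the value held for no read in MEFs. Pooled per group, RPM was 119-fold the MEF value in M KSR3 (95% exact interval 32.7 to 992), 63.8-fold in F KSR2 (17.3 to 533), 43.8-fold in F KSR4 (11.7 to 368), 42.5-fold in TX 2i ESCs (11.4 to 357) and 37.8-fold in M KSR5 (10.1 to 318). The wide intervals follow from the 2 MEF reads. Usp29 passed the filter on low values only through pluripotent libraries and had to differ from MEFs, so no test against MEFs is given for it.

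Per length of the exons behind the rows, M KSR3, the group with the most Usp29, had Usp29 at 1.61 ± 0.49 RPKM (RPM per kilobase) and Peg3 at 12.9 ± 2.0 RPKM. The log2 ratio of Usp29 to Peg3 was -4.76 ± 0.21 in M KSR3 and between -7.99 and -7.24 as means of the other pluripotent groups. Over the 15 pluripotent libraries it exceeded that of MEFs by 3.97, a separation that the 2, 0 and 0 MEF reads of Usp29 had fixed. On the paternal allele alone the groups overlapped, from -9.45 to -3.31 in pluripotent libraries against at most -8.84 in MEFs. Ratios in MEFs rest on the value held for no read. Peg3 and Usp29 did not keep the same order over groups: M KSR3 was the highest group for Usp29 and the lowest for Peg3, and M KSR5 was the lowest pluripotent group for Usp29 and the next to highest for Peg3.

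Both alleles of Usp29 were seen in the pluripotent cells. Over the 15 libraries 49 of 99 allelic reads were maternal, or 49.5% (95% exact interval 39.3 to 59.7%). M KSR3 had 18 maternal and 25 paternal reads, or 41.9% (27.0 to 57.9%), where 1011 of 1326 allelic reads of Peg3 were maternal, or 76.2% (73.9 to 78.5%). F KSR2 had 14 maternal and 10 paternal reads of Usp29, with 0, 6 and 8 maternal reads in its libraries beside 6, 3 and 1 paternal ones. MEFs had no allelic read of Usp29, and no share can be given. The pooled share of Peg3 exceeded that of Usp29 in 4 of 5 groups, with TX 2i ESCs as the exception, by 15.9 ± 19.2 percentage points on average (exact sign-flip test, p = 0.188, and 5 groups cannot reach 0.05).

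Zim1 went the other way. MEF libraries had 58, 77 and 56 reads, of which 23, 28 and 18 were maternal and 0 paternal, so that the 69 allelic reads summed allow a paternal share of up to 4.35%. Pluripotent libraries had 3 to 28 reads, each fewer than the lowest MEF library. In log2 level Zim1 fell by 2.97 ± 0.69 in F KSR2, then by 2.75 in F KSR4, 2.58 in TX 2i ESCs, 2.48 in M KSR5 and 1.98 in M KSR3, with the same SE (limma, adjusted p between 0.00105 and 0.0170).

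The weakest of these, M KSR3, lost its call without MEF replicate 2 (-1.88, adjusted p = 0.0597) or M KSR3 replicate 3 (-1.58, adjusted p = 0.0828) and with no filter on low values (adjusted p = 0.0525). Beside MEFs, Zim1 was above the filter's level of 0 in F KSR4 replicate 2 (0.58) and M KSR3 replicate 2 (0.52). M KSR5 replicate 2 was above it as well (0.23), so the filter did not rest on MEFs alone.

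The few allelic reads of Zim1 left in pluripotent cells came from both parents, 16 maternal and 23 paternal over the 15 libraries, or 41.0% maternal (95% exact interval 25.6 to 57.9%). A paternal read was present in 9 of these libraries and in 0 of the MEF libraries. The 3 pluripotent libraries with at least 5 allelic reads, F KSR4 replicate 2, M KSR3 replicate 2 and TX 2i ESCs replicate 3, had maternal shares of 28.6, 33.3 and 40.0%. MEFs differed from them by 66.0 percentage points (exact permutation test, p = 0.1, the smallest possible). On the maternal allele Zim1 fell in each of the 5 groups, by 3.74 to 4.47 on the log2 scale. Beside MEFs, only M KSR3 replicate 2 (0.44) and TX 2i ESCs replicate 3 (0.42) were above 0 on this allele. Maternal Zim1 thus passed the filter on low values only through MEFs and had to differ, so no test is given for it.

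**Figure D4:**
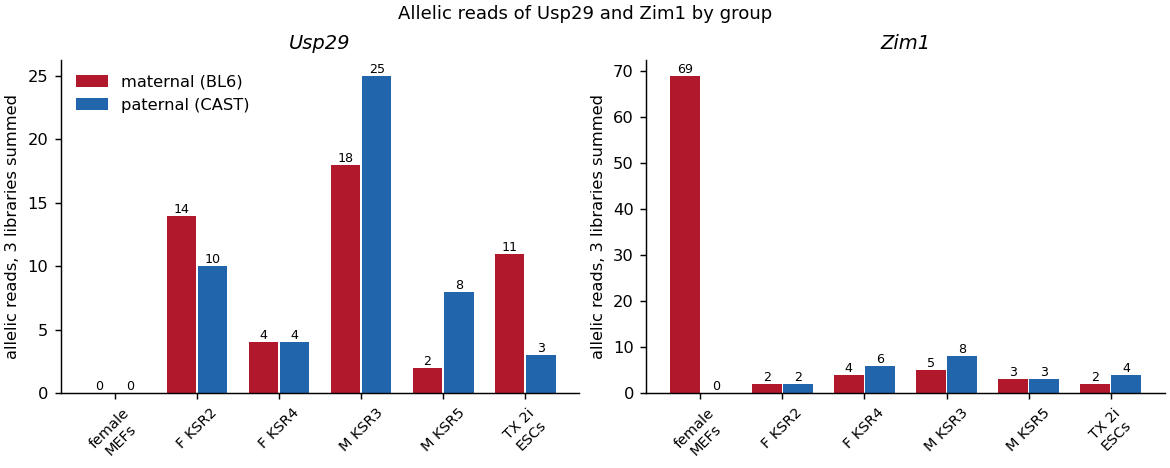
Allelic reads (y axis, counts, 3 libraries summed) of Usp29 and Zim1 by group (x axis), red maternal and blue paternal. The numbers above the bars are the counts. Zim1 has 69 maternal and 0 paternal reads in MEFs, and Usp29 has none of either.

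Of the 29 neighbouring genes in the table within 500 kb of the 3 genes, 13 had a level above 0 in at least 3 libraries, and 16 did not, olfactory and vomeronasal receptor genes among them. Against the mean of the pluripotent groups 7 of the 13 rose, 1 fell and 5 did not pass, with a median log2 difference of 0.74, where 74.6% of all genes passed with a median of 0.21. The largest rises were those of Gm6792 (6.93 ± 0.36), Zscan5b (6.22 ± 0.50) and Aurkc (6.05 ± 0.44). Zscan5b is a zinc finger gene, and Aurkc encodes a kinase of meiotic cells. All of them had 0 reads in MEFs and could only rise, so their calls among the 7 were fixed in advance. Their fitted values rest on the value held for no read. Zfp418 rose by 1.97 ± 0.32, Zfp667 by 1.38 ± 0.24 and Zfp444 by 0.74 ± 0.22. Zfp773 rose by 1.96 ± 0.43 from a mean log2 level of -2.36 in MEFs, below the filter's level of 0. Clcn4-2, which encodes a chloride and proton exchanger, fell by 2.86 ± 0.18.

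Zfp954 differed by -0.02 ± 0.21, and Zfp583, Zfp78, Zfp28 and Zfp772 did not pass either. Under median-of-ratios scaling Zfp444 lost its call, Zfp28 passed as lower, and Zfp583 and Zfp78 turned below 0 without a call.

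Of 8 factors that act at imprinting control regions, 7 rose in the pluripotent groups and 0 fell, where 74.6% of all genes passed. Zfp57, the zinc finger protein that binds methylated control regions, rose by 3.09 ± 0.31, and its corepressor Trim28 by 2.39 ± 0.20. Uhrf1 and Dnmt1, which copy methylation after replication, rose by 2.93 ± 0.18 and 1.65 ± 0.17. Dppa3, an inhibitor of UHRF1, rose by 8.06 ± 0.50 from a mean log2 level of -3.42 in MEFs, near that of a single read. Zfp42, a relative of Yy1 also used as a pluripotency marker, was at 0 reads in MEFs. Its rise by 12.49 ± 0.20 rests on the value held for no read. Dppa3 and Zfp42 passed the filter on low values only through pluripotent libraries. Their rises, counted among the 7, were thus fixed in advance. Yy1, the factor of the intron motif, rose by 0.43 ± 0.14 (limma, adjusted p = 0.00797) and lost this call under median-of-ratios scaling. Zfp445, which binds control regions beside Zfp57, did not pass (0.26 ± 0.43).

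Among pluripotent groups Yy1 was higher in the KSR-iPSC lines than in TX 2i ESCs by 0.48 ± 0.14 (limma, adjusted p = 0.0182). Dppa3 was lower in M KSR3 than in M KSR5 by 2.41 ± 0.64 (limma, adjusted p = 0.0417), where 4.48% of all genes passed. Peg3 also differed in level between these lines, and a link with Dppa3 was not tested.

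A list of 7 genes was fixed for partners and the pathway of PEG3 and USP29. Of these, 3 rose, 1 fell and 3 did not pass in the mean of the pluripotent groups. Of all genes, 74.6% passed. Of the 2 related ubiquitin ligase genes, Siah1b rose by 2.83 ± 0.19, and Siah1a differed by 0.21 ± 0.16 and did not pass. Trp53 and Clspn, whose proteins are stabilised by USP29, rose by 1.72 ± 0.30 and 1.30 ± 0.22. Traf2, a signalling adaptor that binds PEG3, fell by 0.84 ± 0.18. Bax differed by 0.44 ± 0.22 and Ctnnb1 by -0.12 ± 0.11. Ctnnb1 passed as lower under median-of-ratios scaling, and Siah1a turned below 0 without a call.

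**Figure D5:**
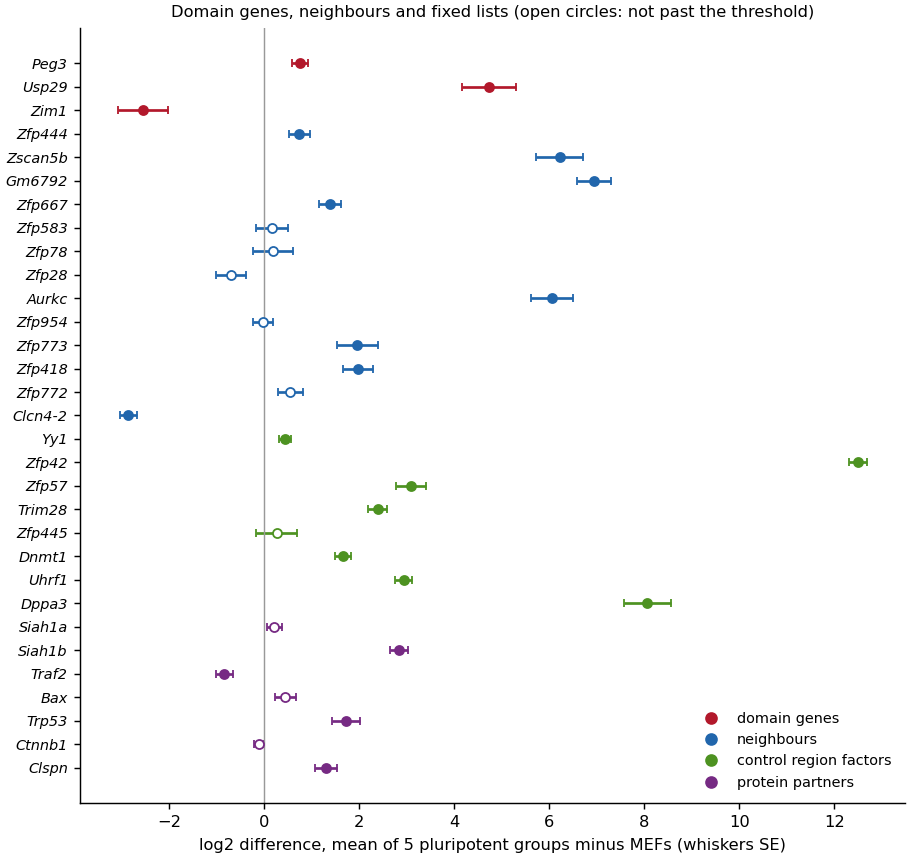
Log2 difference between the mean of the 5 pluripotent groups and MEFs (x axis, whiskers SE of the limma fit) for the domain genes (red), neighbours (blue), control region factors (green) and protein partners (purple). Filled circles passed an adjusted p of 0.05. Usp29, Gm6792, Zscan5b, Aurkc, Dppa3 and Zfp42 were at or near 0 reads in MEFs and had to rise. Their filled circles are therefore not a test, and the value of Usp29 rests on the value held for no read. Usp29 rises by 4.72, Peg3 by 0.76, and Zim1 falls by 2.55, and most control region factors lie to the right of 0.

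Over the 18 libraries and 14631 other genes, the genes whose level was most like that of Peg3 by Pearson's r included Aass (0.90), Six4 (0.87), Sox12 (0.86) and Brpf3 (0.85). Those most like Usp29 were Proc (0.94), Tinf2 (0.93), BC030867 (0.93), Mif4gd (0.93) and Nlrp4c (0.92), and those most like Zim1 were Igf1r (0.90), Atp11a (0.88), Hcfc2 (0.87), Slc12a4 (0.86) and Gpr124 (0.86). These libraries share lines and the contrast of fibroblasts with pluripotent cells, so r is a description. Within the domain r was 0.28 between Peg3 and Usp29, -0.59 between Peg3 and Zim1 and -0.57 between Usp29 and Zim1.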

How the data were processed

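Libraries were strand-specific. After Trim Galore 0.6.1, the authors aligned reads to GRCm38 with HISAT2 2.1.0 and counted them by strand on genes in SeqMonk. The deposited values are log2 RPM, in 4 columns for each of 18 libraries. Allelic columns hold the reads specific to 1 strain genome, without those that carried conflicting SNPs. The sources differ on read length, which was not used. Methylation amplicons of 82 samples were not analysed here.

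Reads were recovered from the value of 1 read (at least 99.97% of a library's values lay within 0.05 of a whole number, and a gene without reads is held at 0.9 read). At least 99.96% of mitochondrial allelic reads were BL6 in every library.

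The genes and lists were chosen with earlier results of these data known. The named genes were the 3 members, tested neighbours within 500 kb, 3 fixed lists and the 5 genes with the highest r per member, of which 1 is not reported here. Levels above 0 in at least 3 libraries were tested with limma 3.58.1 (trend, R 4.3.3) at an adjusted p of 0.05. Shares need at least 5 allelic reads and were tested exactly with NumPy 2.4.6 in Python. Alternatives were another pseudocount, scaling, filter, weighting, set of libraries or read minimum, a replicate block and leaving out each library. The fits were tested on simulated data. The design allows no batch check, because the labels give no batch.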

Additional observations from a re-analysis of the deposited data

Results flagged for a closer look

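The level of Peg3 differed between lines of one sex. Against the same MEFs, M KSR3 differed by -0.13 and M KSR5 by 1.06, and the test of the difference itself gave -1.18 on the log2 scale for M KSR3 minus M KSR5 (limma, adjusted p = 0.00765). It kept its call without each of the 6 libraries in turn (adjusted p between 0.0123 and 0.0492). Values of single libraries that stand far from the rest were looked for only in the 6 female and the 6 male libraries, for levels and for shares with enough reads, and none was found.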

How the results depend on the processing

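Of 1063 values recomputed for 89 results under other settings, 1005 kept direction and side of the threshold (values without a test stayed within 1 SD). The level of Peg3 in TX 2i ESCs against MEFs (0.43) passed in a fit of those 6 libraries alone. Chosen after seeing the data, the mean of the KSR-iPSC lines without M KSR3 stood above TX 2i ESCs by 0.73 for Peg3, which then passed, and at -0.15 for Zim1. Without another line, Peg3 stood 0.18 to 0.39 above and did not pass. Shares from the deposited per-allele values were 60.8% in F KSR4 and 69.5% in M KSR3, and TX 2i ESCs minus KSR-iPSCs turned to 2.90 percentage points. The excess of Peg3 over chromosome 7 (14.1 percentage points) passed with the 15 libraries as units, which share lines.

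Leaving out 1 library in turn, log2 differences ran as follows. KSR-iPSCs minus TX 2i ESCs ran from 0.35 to 0.49 for Peg3 and from -0.27 to 0.30 for Zim1. Females minus males ran from -0.60 to 0.13 for Usp29. F KSR2 minus F KSR4 ran from 0.40 to 0.86 for Peg3 and from -0.88 to 0.56 for Zim1. Paternal Peg3 against MEFs ran from -0.17 to 0.024 in F KSR2, from -0.80 to -0.48 in F KSR4 and from -0.026 to 0.30 in M KSR5. For the maternal share of Peg3, pluripotent groups minus MEFs ran from 64.4 to 66.9 percentage points, TX 2i ESCs minus KSR-iPSCs from -3.38 to 0.20 and F KSR4 minus F KSR2 from -5.39 to 1.62. A left-out group of 2 was taken to vary like the others. Beyond the settings named, the cause of a change was not tested.

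Nothing in the labels ties the replicate numbers, and over all groups they were not taken to pair the samples: deviations of same-numbered libraries correlated by -0.197 to 0.382, over 0.1 in 13 of 45 pairs. All 3 were over 0.1 in 1 of 15 pairs of groups, F KSR2 with TX 2i ESCs (0.170 to 0.252). With the replicate number as a block, Peg3 in M KSR3 minus M KSR5 stayed at -1.18, and none of the 31 results recomputed changed its call, as was also so with limma-voom on the recovered reads. Depth limits the alleles of Usp29 and Zim1, which had 99 and 39 allelic reads in 15 libraries. 2 clones per sex and 1 embryo per sex limit every comparison of sexes or lines.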
